A study of Mus musculus with 25 samples.

Results

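Border-associated macrophages are the resident macrophages of the meninges, the choroid plexus and the spaces around brain vessels. They share a developmental origin and a dependence on Csf1r with microglia, the macrophages of the brain tissue itself, and are told apart from them by scavenger and lectin receptors at their surface. They usually carry more CD45 than microglia, so that a sort for cells with intermediate CD45 can leave many of them out. The 8 genes described here are markers of these cells, chosen by name out of 43411 genes in the table, with earlier results of these data known. Mrc1 (the mannose receptor CD206), Cd163 (a scavenger receptor for haemoglobin bound to haptoglobin), Lyve1 (a hyaluronan receptor), Mgl2 (the galactose-binding lectin CD301b) and Ms4a7 (a membrane protein of the MS4A family) sit at the cell surface. Pf4 encodes a secreted chemokine that platelets also store, F13a1 the catalytic subunit of coagulation factor XIII, and Cbr2 a carbonyl reductase.

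RNA was measured in CD11b+ CD45med microglia sorted from the perfused brains, without cerebellum and olfactory bulbs, of 23 mice at 3 months of age, with 1 library per mouse. There were 6 WT littermates with 1 floxed allele and no Cre (Bin1flox/wt Thy1-Cre-; 2 females, 4 males), 7 heterozygous mice (Bin1flox/wt Thy1-Cre+, Het-cKO; 4 females, 3 males) and 10 homozygous mice (Bin1flox/flox Thy1-Cre+, Homo-cKO; 5 females, 5 males). Every mouse thus carried at least 1 floxed Bin1 allele. The Thy1 promoter drives Cre in neurons, so that the sorted cells were not its intended target. The WT and heterozygous mice all had animal numbers in the 02xx range and the homozygous mice in the 03xx (6 mice) and 04xx (4 mice) ranges, so that homozygous deletion and number range cannot be told apart.

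Total counts ran from 10812877 to 16734740 per mouse, and 12908 genes had enough counts to be tested. The 12 microglia genes, which include Tmem119 and P2ry12, all had a mean above 1 CPM (counts scaled to the TMM-normalized size of the library), and summed to 66800 to 90500 CPM in a WT mouse, 61500 to 79100 CPM in a Het-cKO mouse and 55200 to 66000 CPM in a Homo-cKO mouse, so that the WT and Homo-cKO ranges did not overlap. Bin1, which microglia also express, had a mean of 699 ± 88.3 CPM in the WT group, 692 ± 40.6 in the Het-cKO group and 481 ± 130 in the Homo-cKO group (SD; n = 6, 7 and 10). The cause of the lower Bin1 mean in sorted cells of the Homo-cKO group was not tested. In 4 homozygous mice (F1, F2, M1 and M2; F female, M male) Fos stood at 824 to 1460 CPM, against at most 7.0 CPM in the other 6.

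Of the 8 genes, 7 had counts and all 7 could be tested. Together they made up between 0.000737% and 0.00574% of a mouse's counts. Their summed level was 19.9 ± 10.3 CPM in WT littermates (range 7.65 to 35.3), 30.0 ± 16.7 CPM in heterozygous mice (13.9 to 61.2) and 28.5 ± 10.5 CPM in homozygous mice (10.1 to 43.3), and the 3 ranges overlapped. For each of the 7 genes, too, the groups overlapped in every genotype comparison, as they did for all but 1.81% of tested genes in homozygous mice against WT littermates, 0.108% in heterozygous mice against WT littermates and 2.32% in homozygous against heterozygous mice. In such bulk samples, fewer cells of a type and less RNA per cell cannot be told apart.

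**Figure D1:**
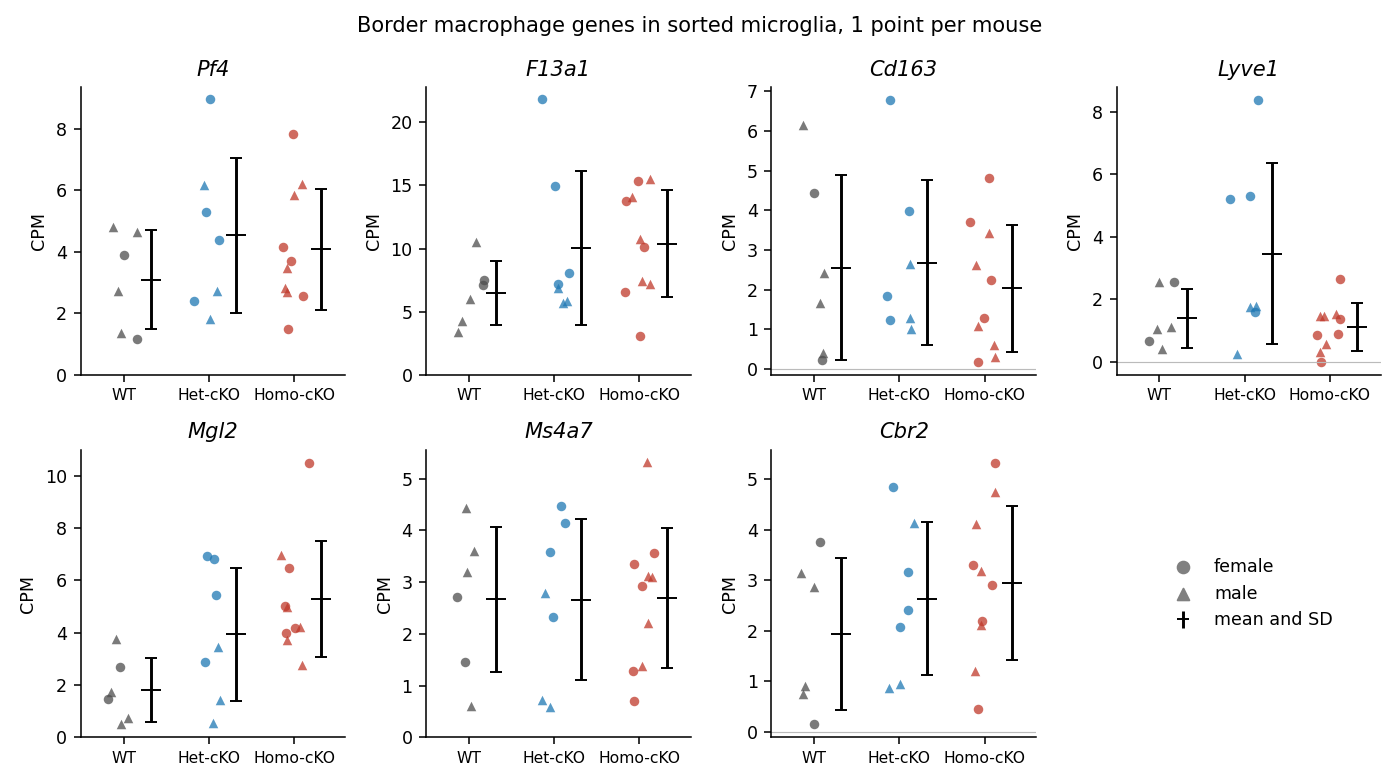
CPM of each of the 7 genes with counts, by genotype. Each point is a mouse, the bars are the mean and SD over mice, and the ranges of the 3 genotypes overlap for every gene, with Mgl2 in homozygous mice at 2.78 to 10.5 CPM against 0.515 to 3.75 CPM in WT littermates.

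Per kilobase of annotated exon, which allows levels to be compared between genes, Pf4 was the highest, with a mean of 5.50 CPM per kb over the 23 mice. Cbr2 (1.95 CPM per kb), Mgl2 (1.90) and F13a1 (1.37) followed, then Lyve1 (0.652), Ms4a7 (0.602) and Cd163 (0.433). Cbr2, Mgl2 and F13a1 lay within 1 SD over mice of each other, and so did Lyve1, Ms4a7 and Cd163, the SD being between 50.5% and 103% of the mean of each gene. Within a genotype the SD of a gene was 2.76 to 6.70 times what counting error alone gives. In the test's own terms, the biological coefficient of variation was 0.799 for Cd163, 0.723 for Lyve1 and 0.652 for Cbr2, and at its lowest 0.420 for F13a1, against a median of 0.353 over the 3348 tested genes with a mean of 1 to 10 CPM.

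Mrc1, the receptor most often used to stain these macrophages, was listed at 0 in all 23 mice. This zero cannot be read as absence. The gene lies on chromosome 2 (GRCm38, 14229392 to 14332057, plus strand) within a stretch of 19.8 Mb, from 3114224 to 22940266, in which 91 protein-coding genes in a row were at 0 in every mouse. That stretch holds 415 genes of any type, none of which had a count. Among them are Vim, the intermediate filament protein vimentin, and Stam, an adaptor of endosomal sorting, both used by many cell types. The next gene with a count beyond it, Abi1, had a mean of 6.25 CPM. Over the table, 24.2% of 20535 protein-coding genes were at 0 in every mouse, and this run was the fifth longest. The level of Mrc1 in these cells is therefore unknown.

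**Figure D2:**
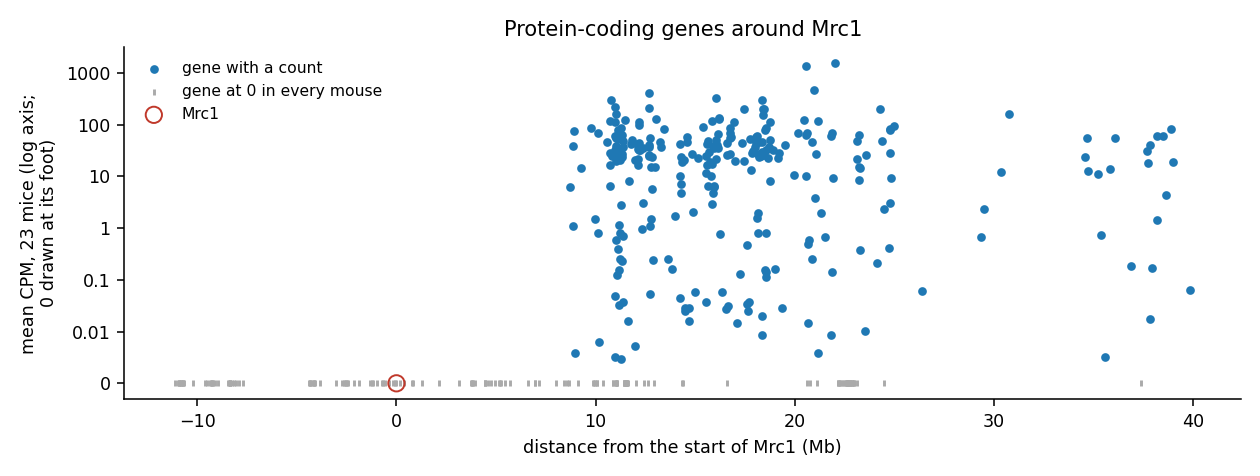
Mean CPM over 23 mice (log axis, with 0 drawn at its foot) of protein-coding genes by distance in Mb from the start of Mrc1. Every gene up to the end of the stretch, including Mrc1, sits at 0, and genes with counts begin with Abi1 at 6.25 CPM.

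The RefSeq promoter windows of the genes, 250 bases before to 50 after the transcription start, were searched on both strands for GAGGAA, a core of the sites of PU.1, the factor that macrophage genes depend on. They were also searched for TGCTGA, a core of the sites of MAF factors, and for the AP-1 site TGACTCA. For 7 of the 8 genes 9 windows were found, with 2 each for F13a1 and Ms4a7. The PU.1 core was in 7 of the 9 (all but that of Cd163 and the second of Ms4a7) and in 28.3% of 32851 promoter windows of all genes. The MAF core was in that of Cbr2 alone (19.5% of all windows), and the AP-1 site in none (5.20%). The 4 windows given next, 5′ to 3′ on the strand of the gene, are those of Pf4 and Cbr2, the pair whose levels rose and fell together most closely between mice, of F13a1, the gene with the most counts (the window nearest the annotated start), and of Mgl2, the gene that differed between genotypes. They are at chr5:90772185-90772484 (plus strand), chr11:120731972-120732271 (minus strand), chr13:37050195-37050494 (minus strand) and chr11:70130107-70130406 (plus strand) in GRCm38.p6. Capitals mark the PU.1 core and, at the end of the Cbr2 window only, the MAF core, as read on either strand, and no match overlapped another.
Pf4: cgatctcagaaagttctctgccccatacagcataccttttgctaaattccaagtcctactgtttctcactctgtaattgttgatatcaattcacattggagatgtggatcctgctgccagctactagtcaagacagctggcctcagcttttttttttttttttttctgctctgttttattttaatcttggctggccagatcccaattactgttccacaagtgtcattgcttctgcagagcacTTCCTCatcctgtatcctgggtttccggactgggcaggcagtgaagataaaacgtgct
Cbr2: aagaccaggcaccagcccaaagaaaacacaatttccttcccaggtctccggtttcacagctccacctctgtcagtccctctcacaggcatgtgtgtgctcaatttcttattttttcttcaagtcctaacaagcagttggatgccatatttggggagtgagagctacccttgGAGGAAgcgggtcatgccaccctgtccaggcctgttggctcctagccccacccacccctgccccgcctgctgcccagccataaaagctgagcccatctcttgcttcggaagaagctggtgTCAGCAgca
F13a1: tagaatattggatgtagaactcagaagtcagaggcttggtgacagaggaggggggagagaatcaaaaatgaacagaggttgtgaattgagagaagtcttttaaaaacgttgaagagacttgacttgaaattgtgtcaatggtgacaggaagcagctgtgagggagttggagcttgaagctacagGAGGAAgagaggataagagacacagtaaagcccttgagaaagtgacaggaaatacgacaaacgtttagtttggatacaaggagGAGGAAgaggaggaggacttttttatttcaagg
Mgl2: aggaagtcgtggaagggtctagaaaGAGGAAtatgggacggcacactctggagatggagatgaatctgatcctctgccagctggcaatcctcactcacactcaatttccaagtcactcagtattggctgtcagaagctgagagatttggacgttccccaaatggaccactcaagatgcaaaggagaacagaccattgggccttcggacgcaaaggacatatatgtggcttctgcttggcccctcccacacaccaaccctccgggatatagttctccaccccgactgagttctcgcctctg

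Whether loss of Bin1 from neurons goes with a change of these genes in the sorted cells was asked first of homozygous mice against WT littermates. Mgl2 was higher in homozygous mice, and the other 6 genes passed no threshold. All 12908 genes were tested with edgeR (quasi-likelihood, with sex in the fit), and a gene was called where its Benjamini-Hochberg adjusted p was below 0.05 and its change exceeded 1.5-fold. By this rule 1 of the 7 genes was called, against 3.4% of all tested genes (1.65% higher in homozygous mice).

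Mgl2 levels in the WT group were 0.515, 1.61 and 3.75 CPM (lowest, median and highest mouse). They were 0.557, 3.46 and 6.92 CPM in the Het-cKO group and 2.78, 4.60 and 10.5 CPM in the Homo-cKO group. Of the 10 homozygous mice, 8 lay above every WT littermate and all 10 above the WT median, with M4 at 2.78 and M1 at 3.71 CPM within the WT range. The log2 fold change was 1.41 (SE 0.41, 95% interval 0.56 to 2.26, adjusted p = 0.0257). It was 1.53 within females (adjusted p = 0.279) and 1.42 within males (adjusted p = 0.103), and the difference between the sexes was 0.11 (SE 0.81, adjusted p = 0.997; all edgeR).

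The Mgl2 call rested on few reads, 7 to 172 counts in a mouse. It was lost, at adjusted p between 0.0522 and 0.0682 in edgeR, in 5 of the 23 fits that left out a single mouse (homozygous M2 or WT F1, F2, M2 or M4). Against homozygous mice of the 04xx range alone the log2 fold change was 1.28 (adjusted p = 0.157), and for the 03xx range alone 1.45 (adjusted p = 0.0445). Mgl2 also shares sequence with its neighbour Clec10a, the lectin CD301a: of the 2205 windows of 50 bases in its transcripts, 13.1% occur in another gene, 270 of them in Clec10a, so that the split of reads between the pair is uncertain. Clec10a had a log2 fold change of -0.35 (SE 0.51, adjusted p = 0.712), and with the counts of both genes added the difference was 0.81 (adjusted p = 0.147). Of the 12 microglia genes, 1 was called lower in homozygous mice than in WT littermates, where 3.4% of all tested genes were called. It was the matrix protein gene Sparc (-0.66, adjusted p = 4.29e-08 in edgeR), and the list median was -0.23. The part of this shift in the Mgl2 difference was not tested.

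F13a1 had the next largest difference. Its lowest, median and highest levels were 3.38, 6.57 and 10.5 CPM in the WT group, 5.71, 7.17 and 21.8 CPM in the Het-cKO group and 3.11, 10.4 and 15.5 CPM in the Homo-cKO group. The highest 5 homozygous mice lay above every WT littermate and F2, at 3.11 CPM, below them all. The log2 fold change was 0.65 (SE 0.33, 95% interval -0.02 to 1.33, adjusted p = 0.197 in edgeR). Without the 4 homozygous mice of highest Fos it was 0.98 with an adjusted p of 0.0395, past the threshold, whereas Mgl2 was then at 1.33 with an adjusted p of 0.0786.

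For Pf4 the means were 3.10 ± 1.60 CPM in WT littermates and 4.08 ± 1.96 in homozygous mice, with a log2 fold change of 0.39 (adjusted p = 0.56). Cbr2 stood at 1.93 ± 1.51 and 2.95 ± 1.53 CPM (0.59, adjusted p = 0.502), although 12.1% of its 50-base windows recur in Gm11771, which had at most 2 counts in a mouse. Ms4a7 was at 2.67 ± 1.41 and 2.70 ± 1.35 CPM (0.00, adjusted p = 0.997), with a 95% interval from -0.91 to 0.92. The surface receptors Cd163 (2.55 ± 2.34 and 2.03 ± 1.60 CPM) and Lyve1 (1.39 ± 0.937 and 1.12 ± 0.761 CPM) had log2 fold changes of -0.48 (adjusted p = 0.675) and -0.41 (adjusted p = 0.703). Their 95% intervals, -1.76 to 0.80 and -1.60 to 0.78, leave room for a change of more than 1.5 times in either direction. Over the 7 genes the median log2 fold change was 0.39, and over all tested genes 0.01.

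**Figure D3:**
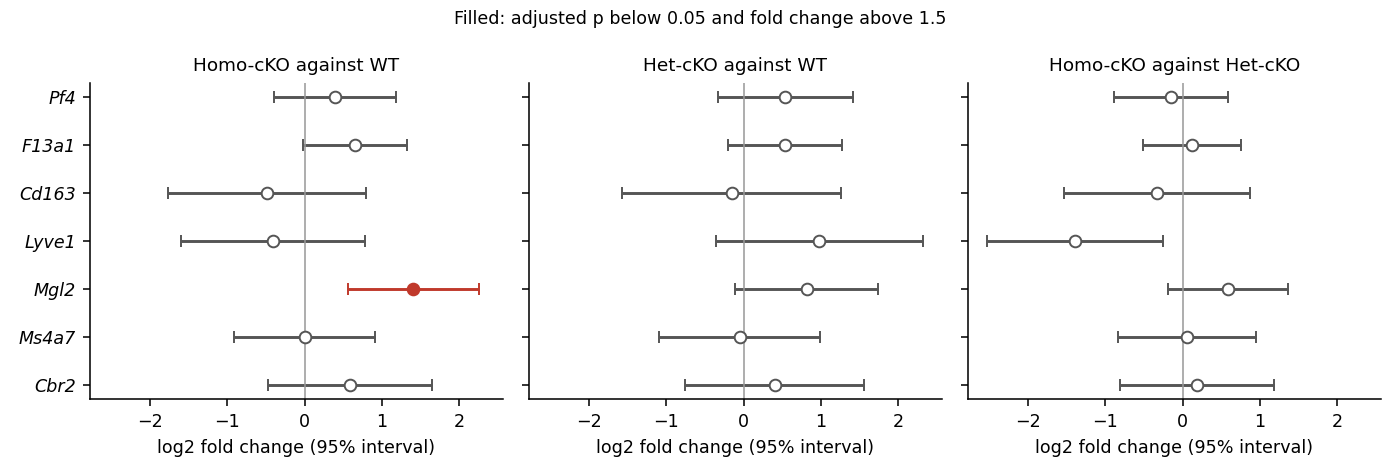
Log2 fold change and 95% interval of the 7 genes in the 3 genotype comparisons (edgeR, genotype and sex in 1 fit). The filled point is Mgl2 in homozygous mice against WT littermates, at 1.41, and the open points did not pass the threshold, with Lyve1 in homozygous against heterozygous mice at -1.40.

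In heterozygous mice against WT littermates none of the 7 genes was called, and 0 of the 12908 tested genes were (0.0%). At an unadjusted p below 0.05 the counts were 0 of 7 and 998 of all genes (7.73%), and DESeq2 and limma-voom also called 0 of the 7. The largest differences were those of Lyve1 (0.98, SE 0.65, 95% interval -0.36 to 2.33, adjusted p = 0.75) and Mgl2 (0.82, SE 0.45, 95% interval -0.11 to 1.74, adjusted p = 0.676). For the other 5 the log2 fold change lay between -0.15 and 0.54, and the median over the 7 was 0.54 against 0.00 over all genes.

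Homozygous and heterozygous mice both carry Cre and differ in the number of floxed alleles. None of the 7 genes was called in this comparison, in which 6.62% of all tested genes were, and 1 had an unadjusted p below 0.05, as 35.7% of all genes did. That gene was Lyve1, with 0.254, 1.79 and 8.37 CPM (lowest, median and highest) in heterozygous mice and 0, 1.14 and 2.66 CPM in homozygous mice. The 3 highest heterozygous mice, F1, F2 and F3, were at 5.22 to 8.37 CPM, above every homozygous mouse, while M4 at 3 counts lay among the lowest homozygous mice. Homozygous F2 had no Lyve1 count, which allows up to 3 counts or 0.266 CPM.

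The Lyve1 log2 fold change of homozygous against heterozygous mice was -1.40 (SE 0.56, 95% interval -2.54 to -0.25, adjusted p = 0.0706 in edgeR). DESeq2 gave -1.40 with an adjusted p of 0.0351 and so called it, whereas limma-voom gave -1.68 with an adjusted p of 0.0683. It was also called without heterozygous M4 (-1.66, adjusted p = 0.0323) and without sex in the fit (-1.63, adjusted p = 0.0316). The remaining 6 genes had log2 fold changes from -0.33 to 0.59.

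Neither did sex separate the genes: 0 of 7 were called between females and males, where 0.0697% of all genes were, with DESeq2 and limma-voom calling 0 as well. All 7 log2 differences of female against male were above 0 (0.04 to 0.75), and 1 had an unadjusted p below 0.05 (5.83% of all genes), that of Mgl2 (0.74, SE 0.33, adjusted p = 0.84 in edgeR). The genotype by sex interaction of homozygous mice against WT littermates called 0 of 7 genes and 0.0% of all genes, and none of the 7 reached an unadjusted p of 0.05, as 4.99% of all genes did.

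What the 7 genes shared was their variation from mouse to mouse. After removal of each genotype's mean from log2 CPM, every one of the 21 pairs was positively correlated over the 23 mice. Pearson's r had a median of 0.629 and Spearman's rho of 0.646. A permutation test within genotypes (two-sided, 100000 permutations, Benjamini-Hochberg over the 21 pairs) passed 16 pairs at an adjusted p below 0.05 by r and 16 by rho.

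**Figure D4:**
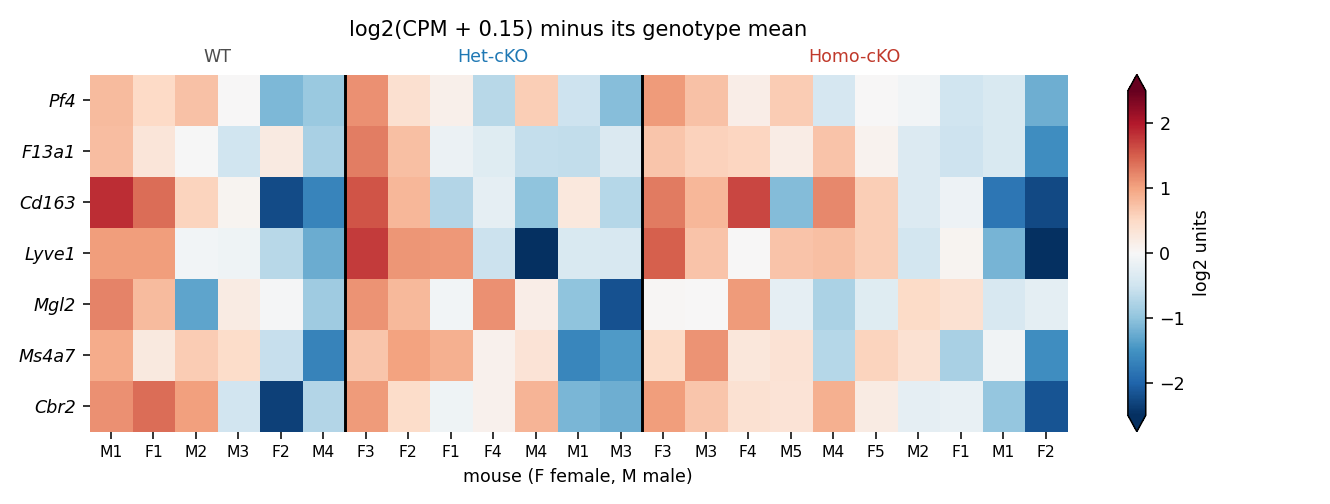
Log2(CPM + 0.15) of the 7 genes in each mouse minus the mean of its genotype, with mice ordered within genotype by their mean rank over the genes. Whole columns share a colour, as in Het-cKO F3 (high) and WT M4 and Homo-cKO F2 (low), while Mgl2 departs from the other rows in several homozygous mice.

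Pf4 and Cbr2 were the most closely related pair (r = 0.848, rho = 0.853, adjusted permutation p = 0.0001 and 0.00021), and r was 0.797 without the 2 mice farthest from the median of Pf4. F13a1 and Lyve1 followed with r = 0.829 and rho = 0.799 (adjusted permutation p = 0.0001 and 0.00031; r = 0.729 without the 2 farthest mice). An unadjusted p of 1e-05 was the smallest that this number of permutations can give, and 2 pairs reached it by r.
The first pair is a chemokine and an enzyme, the second a clotting factor and a receptor.

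Mgl2 stood apart. Of its 6 pairs only the one with Ms4a7 passed by r (0.561, adjusted permutation p = 0.019), and only the one with Cd163 by rho (0.476, adjusted permutation p = 0.034). Its weakest pair was that with Lyve1 (r = 0.283, rho = 0.351, adjusted permutation p = 0.24 and 0.13). Within homozygous mice the r of its pairs ran from 0.007 (Lyve1) to 0.304 (Cd163). There the lowest pair without Mgl2 was Cd163 with Ms4a7, at 0.489. Within heterozygous mice the r of the Mgl2 pairs ran from 0.274 (Lyve1) to 0.853 (Cbr2), and within WT littermates from 0.256 (Cbr2) to 0.740 (Lyve1). The lowest of all pairs was Lyve1 with Cbr2 (0.114) in heterozygous mice and Mgl2 with Cbr2 in WT littermates. For the 02xx range, which holds the WT and heterozygous mice, the Mgl2 pairs were at 0.407 (Lyve1) to 0.671 (Ms4a7). There Mgl2 did not stand apart, since the lowest of all pairs was Lyve1 with Cbr2, at 0.373. Set against the mean of the other members, the 6 other genes had r between 0.731 (Lyve1) and 0.826 (Pf4), and Mgl2 had 0.475. Among 12836 other tested genes with a symbol, 302 had an r with the mean of all 7 genes above that of Mgl2 with the other members. At most 5 had one above that of each other member. The means compared differ by the member left out, so these counts are approximate.

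Over the pairs as a whole, the relation was present within groups as well. By genotype, the median r over the pairs was 0.740 (WT, n = 6), 0.598 (Het-cKO, n = 7) and 0.679 (Homo-cKO, n = 10). It was 0.601 within the 02xx number range and 0.892 within the 03xx range (n = 6), while the 04xx range held too few mice. Without centring on genotype it was 0.585. The 03xx range holds the 4 homozygous mice of highest Fos, with F13a1 at 3.11 to 7.41 CPM, beside F3 and M3 at 15.3 and 14.1 CPM. The part of this split in the r of 0.892 was not tested. The number of pairs that passed fell to 9 within the 02xx range alone and to 8 without the 4 homozygous mice of highest Fos, with medians of 0.601 and 0.535. The mean of the 7 genes was also correlated with sequencing depth (r = 0.473 with log2 total counts over the 23 mice), and with total counts removed the median r was 0.563 and 14 pairs passed.

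The mice that carried the pattern can be named. Het-cKO F3 was among the 5 highest of the 23 mice for 6 of the 7 genes, with a summed level of 61.2 CPM from 922 counts. Next by mean rank came Homo-cKO F3 (43.3 CPM), Het-cKO F2 (42.6 CPM) and Homo-cKO M3 (38.8 CPM). WT M4 was among the 5 lowest for all 7 genes, at 7.65 CPM and 113 counts, and Homo-cKO F2 for 6 genes, at 10.1 CPM and 114 counts. High and low mice occurred in more than 1 genotype and in both sexes. The 4 homozygous mice with Fos at 824 to 1460 CPM were the 4 lowest homozygous mice by mean rank, with Cd163 at 0.177 to 1.28 CPM against 0.592 to 4.82 CPM in the other 6, but with Mgl2 at 3.71 to 6.98 CPM against 2.78 to 10.5 CPM. The part of the Fos state in these levels was not tested.

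Of the other genes, those closest to the mean of the 7 between mice were Lyz2 (lysozyme, r = 0.836), Cd209f (a C-type lectin, r = 0.820), Slc38a9 (a lysosomal amino acid sensor, r = 0.773), Siglec1 (the sialic acid receptor CD169, r = 0.736) and Gpx3 (a secreted glutathione peroxidase, r = 0.735). Ssr4, Mmp9, Cybb, H2-Aa and Npc2 completed the first 10, with r from 0.695 to 0.715. Over the 12836 genes r had a median of -0.005, a 5th percentile of -0.389 and a 95th percentile of 0.392. These r values were taken over the same libraries and are given as a description.
Lyz2 was well above the 7 genes in level: at 142 ± 18.6 CPM (WT), 146 ± 32.5 CPM (Het-cKO) and 353 ± 82.7 CPM (Homo-cKO), it was called higher in homozygous mice (log2 fold change 1.29, adjusted p = 3.54e-05 in edgeR).

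Another 24 genes known from border-associated macrophages, Cd209f and Siglec1 among them, were set beside the 7. Of these, 23 had a row and 20 could be tested. Their median r with the mean of the 7 was 0.530, and 17 of the 20 were above 0. Of the 20, 12 lay above the 95th percentile of all genes, among them the secreted phospholipase Pla2g2d (0.663), ficolin A (Fcna, 0.603) and the folate receptor Folr2 (0.527), which were named after their values were seen. The 3 genes of the list with the highest levels lay below it: Maf (330 CPM, r = -0.038), Stab1 (319 CPM, 0.129) and Gas6 (265 CPM, 0.383).

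By genotype, 1 of the 20 was called higher in homozygous mice than in WT littermates and 0 lower, where 3.4% of all tested genes were called (1.65% higher). It was Dab2, an endocytic adaptor, at 16.2 CPM in WT littermates and 30.1 CPM in homozygous mice (log2 fold change 0.89, SE 0.17, adjusted p = 0.00141 in edgeR). The median log2 fold change of the list was -0.12, against 0.01 over all genes. Against heterozygous mice, 2 of the 20 were higher, Dab2 (0.67, adjusted p = 0.00373) and Clec12a (an inhibitory lectin receptor, 1.62, adjusted p = 0.0436), and 2 were lower, Cd209f (-1.61, adjusted p = 0.0339) and Cd209g (-2.25, adjusted p = 0.0166). Clec12a, Cd209f and Cd209g rested on few counts. Mean Clec12a was 0.58 CPM in heterozygous and 1.7 CPM in homozygous mice. In the same order Cd209f was at 3.63 and 1.14 CPM, and Cd209g at 1.16 and 0.24 CPM. Of all tested genes, 6.62% were called in homozygous against heterozygous mice. In heterozygous mice against WT littermates, 0 of the 20 were called, as were 0.0% of all tested genes.

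**Figure D5:**
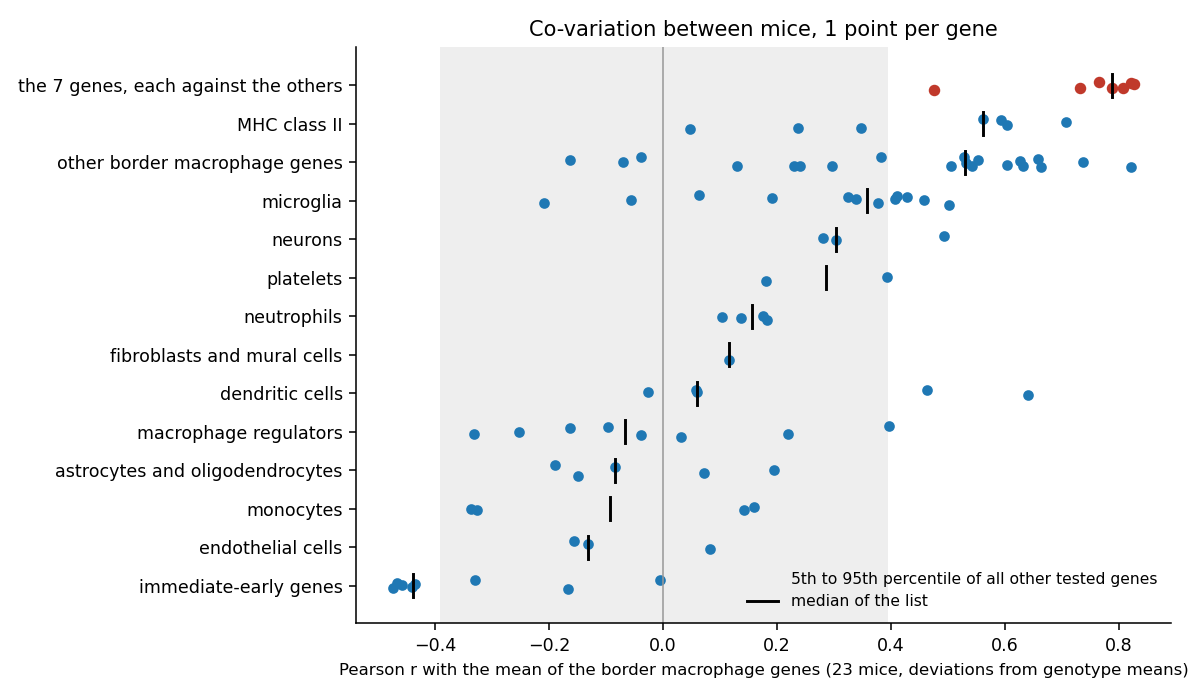
Pearson r of each tested gene of the marker lists with the mean of the 7 border macrophage genes over 23 mice, as deviations from genotype means, with list medians as bars and the 5th to 95th percentile of all other tested genes (-0.389 to 0.392) in grey. The 7 genes, each set against the others, lie at 0.475 to 0.826, MHC class II genes have a median of 0.561 and immediate-early genes one of -0.438.

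Marker genes of further cell types were measured in the same way. The 7 genes listed for MHC class II, the pathway that presents peptides to T cells, had a median r of 0.561 with the mean of the 7 border macrophage genes. All of them were above 0. In homozygous mice against WT littermates 5 of the 7 were called higher, as 1.65% of all tested genes were, with a list median of 1.27. The largest changes by edgeR were those of Ciita (2.27, adjusted p = 0.0489), H2-Eb1 (2.23, adjusted p = 0.000834) and H2-Aa (1.82, adjusted p = 0.000943). Ciita rested on few counts, with means of 0.187 CPM in WT littermates and 0.927 CPM in homozygous mice. H2-Eb1 was at 6.55 and 30.7 CPM and H2-Aa at 12.3 and 43.9 CPM. The summed list had medians of 451 CPM (WT), 492 CPM (Het-cKO) and 750 CPM (Homo-cKO), with highest values of 636, 587 and 1020 CPM.

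Ccr2, a chemokine receptor of monocytes, was called higher in homozygous mice (4.92 ± 0.701 and 12.5 ± 3.89 CPM, log2 fold change 1.28, adjusted p = 0.000812), but its r with the mean was 0.159. The 8 monocyte genes summed to 6.25 to 12.6 CPM (WT), 6.45 to 14.7 CPM (Het-cKO) and 13.8 to 26.8 CPM (Homo-cKO), and 2 of them had a mean above 1 CPM. Of the 4 that could be tested, Ccr2 alone was called. By edgeR, Chil3 (1.94, adjusted p = 0.335), Itga4 (1.13, adjusted p = 0.184) and Plac8 (-0.17, adjusted p = 0.813) were not. Of those with too few counts, S100a4, Vcan and F10 had lower means in homozygous mice than in WT littermates, and Ly6c2 a higher one. Ly6c2, a marker of classical monocytes, had a mean of 0.107 CPM and could not be tested. The 5 dendritic cell genes, of which 4 had a mean above 1 CPM, summed to 11.3 to 20.5, 7.60 to 21.4 and 8.25 to 18.2 CPM. None of the 5 was called, where 3.4% of all tested genes were in homozygous mice against WT littermates. The median r of the 5 with the mean of the 7 genes was 0.059. Of the 5, 2 lay above the 95th percentile of all genes, Cd209a (0.640) and Itgax (0.463). The part of monocytes and dendritic cells in the Mgl2 difference was not tested.

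Platelets store Pf4, and F13a1 is also a platelet transcript. Of the 8 platelet genes, which summed to 45.8 to 59.1 CPM (WT), 49.4 to 66.7 CPM (Het-cKO) and 22.8 to 49.3 CPM (Homo-cKO), 1 had a mean above 1 CPM, Gp9 at 47.2 CPM. Ppbp had a mean of 0.0133 CPM and Itga2b of 0.137 CPM, and Gp6 was listed at 0 in every mouse. The part of platelets in the levels of Pf4 and F13a1 was not tested. The 6 lymphocyte genes summed to at most 0.598 CPM in a mouse. The 6 endothelial genes summed to 36.8 to 83.3 CPM over the mice, led by Pecam1 (46.5 CPM) and Kdr (9.13 CPM), with a median r of -0.131. Of the 6 fibroblast and mural cell genes, Pdgfrb (5.63 CPM, r = 0.116) alone had a mean above 1 CPM, and it was called lower in homozygous mice than in WT littermates (-2.24, adjusted p = 0.0114 in edgeR). Cldn5, Col1a1 and Lum were listed at 0 in every mouse. As for Mrc1, a listed 0 in this table cannot be read as absence. The 6 neutrophil genes ran from 0 to 83.9 CPM in a mouse, with r of 0.104 to 0.182 with the mean of the 7 genes for the 4 that could be tested. Of 3 tested neuron genes (median r 0.304), 2 were called lower in homozygous mice than in WT littermates, with 3.4% of all tested genes called. By edgeR they were Snap25 (11.3 CPM in WT littermates and 1.94 in homozygous mice, -2.52, adjusted p = 8.96e-05) and Nrgn (-2.76, adjusted p = 0.00028). Of 5 tested astrocyte and oligodendrocyte genes (median r -0.084), Mobp alone was called, and lower (-1.69, adjusted p = 0.0219 in edgeR). Their part in these levels was not tested.

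The 8 tested regulators of macrophages, with the transcription factor PU.1 (Spi1) and the receptor Csf1r among them, had r from -0.332 to 0.397 and a median of -0.067. None was called between homozygous mice and WT littermates, where 3.4% of all tested genes were. The 12 microglia genes had a median r of 0.358, with 10 of them above 0. Of the 8 tested immediate-early genes, which include Fos, Jun and Egr1, 0 had an r above 0, and the median was -0.438.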

How the data were processed

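Microglia from 23 mice were sequenced, 1 library per mouse. Reads were aligned by the authors to mm10, and RSEM gave the expected counts per gene that they deposited. These values, normalized for neither depth nor length, were rounded to whole numbers. Of 43411 identifiers, 42929 matched a symbol in GRCm38 annotation. A strand setting was not given in the sources used here. For 25 labelled samples, 23 columns were used, since 1 WT female and 1 heterozygous male had no column.

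Genes were kept by filterByExpr with genotype as the group, normalized by TMM and tested with edgeR 4.0.16 (quasi-likelihood, genotype and sex in 1 fit, R 4.3.3). A call needed a Benjamini-Hochberg adjusted p below 0.05 and a change of over 1.5-fold, as in the study, whose DESeq2 test is an alternative. Standard errors were back-calculated from each F statistic. Correlations used log2 CPM with a prior count of 2, as deviations from genotype means, and 100000 permutations within genotypes. Totals of 10812877 to 16734740 counts per mouse limit the precision of genes at a few CPM. On simulated data for homozygous against WT mice (200 changed genes of 1 to 10 CPM, 12703 tested), 31% of log2 changes of 1 and 65% of 1.5 were recovered, with 1 unchanged gene called. The changed genes were drawn from all genes at that level, whose median biological coefficient of variation was 0.353. In the 7 genes it was at least 0.420 (F13a1), and recovery at their spread was not tested.

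The 8 genes and all gene lists were chosen with earlier results of these data known. Named in the text are all 8 genes, up to 3 genes of each list (those called with the largest change, otherwise those of highest level) and the 10 genes closest to the mean of the 7. Other genes of the lists were named after their values were seen, for their r, level, direction of change or listed 0, or for a call in a further comparison. Some were named for sequence shared with Mgl2 or as known markers or regulators of their cell type. Dixon's test over 21 groups found no mouse far from the others. No pair of libraries held identical counts. Nothing in the labels says more of how the samples were handled than that each is a separate animal. Alternatives were other normalizations, filters and tools, no sex term, number ranges alone and each mouse left out, and 5 more chosen after seeing the data. RefSeq promoter windows were those of GRCm38.p6, and shared 50-base windows were counted in GENCODE transcripts.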

Additional observations from a re-analysis of the deposited data

How the results depend on the processing

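Counts of a few CPM per gene limit these tests, and genes that missed the threshold are not shown to be equal. Members called in homozygous mice against WT littermates ranged from 0 to 1 over the leave-one-out fits, and were 0 with the 04xx range alone (Mgl2 1.28) and with Mgl2 and Clec10a counts summed (0.81). DESeq2 and the fit by genotype alone each called 1 member, Lyve1, in homozygous against heterozygous mice, and the leave-one-out fits called 0 to 1. Calls in the other comparisons stayed at 0. Pairs of members past the threshold were 9 in the 02xx range alone and 8 without the 4 homozygous mice of highest Fos, and 14 to 19 with 1 mouse left out, while the median r stayed between 0.535 and 0.668 over 9 settings and between 0.552 and 0.726 with 1 mouse left out.

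Log2 fold changes that turned direction were all past no threshold. Without the 4 mice of highest Fos, they were Cd163 (0.02) and Lyve1 (0.05) against WT littermates, and Pf4 (0.17) and Cd163 (0.18) against heterozygous mice. In heterozygous mice, Cd163 turned to 0.58 and Ms4a7 to 0.03 with limma-voom, and Cd163 to 0.08 without sex. Against heterozygous mice, F13a1 turned to -0.06 with the 03xx range alone and Cd163 to 0.11 with the 04xx range alone. Leave-one-out values of the turned genes ran in homozygous mice against WT littermates from -0.81 to 0.08 for Cd163, in heterozygous mice from -0.51 to 0.38 for Cd163 and from -0.26 to 0.21 for Ms4a7, and in homozygous against heterozygous mice from -0.35 to 0.10 for Pf4, -0.55 to 0.02 for Cd163 and -0.18 to 0.21 for Ms4a7. The causes were not tested. A median r over members of at least 5 CPM could not be given, since only 1 member, F13a1, reached that level. No paired analysis was possible because each animal number in the labels belongs to a single mouse, so that the groups share no replicate numbers.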
